A study of Mus musculus with 3 samples.

Results

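The genes described are 30 genes of the ATF4 arm of the integrated stress response and of serine and one-carbon synthesis, read in every library of a mouse osteoclast experiment. They were taken by gene name from a list of 31 names, of which 1 matched no gene, out of 54532 genes in all. The list was drawn up because Trib3 lay below RANKL alone in one TSH library and above it in the other, so every difference between libraries below is a description and is put to no test. Trib3, Cth and Phgdh were the markers of the list.

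RNA came from RAW264.7 cells, a mouse macrophage line labelled as wild type, given the cytokine RANKL for 3 days so that they form osteoclasts. One library had no thyroid stimulating hormone (TSH), labelled 0 h, and 2 libraries had 10 mU/mL of TSH, for 2 h and for 24 h. The TSH libraries are called T1 and T2, since their names do not say which had 2 h, and nothing is read from the hours. TSH, time in culture and the single library cannot be told apart, because each group is 1 library of 1 line.

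When amino acids run short, haem is lacking or proteins misfold, kinases phosphorylate eIF2alpha, the subunit of the factor that brings the first tRNA to the ribosome. Most translation then slows, while the mRNA of the transcription factor ATF4 is translated better. ATF4 turns on genes that import and make amino acids, with serine and the folate cycle among them, and genes that feed back on the pathway, such as Trib3. The pathway works largely through phosphorylation and translation, which mRNA levels do not measure.

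Several of these genes carry near their start the letters TGATGNAA, a common form of the element that binds ATF4 with C/EBP partners. RefSeq promoter windows (GRCm38), from 250 bases before to 50 bases after a start, were found for 27 of the 30 members, and 7 of them held the motif on either strand. Aldh1l2, Cth and Ppp1r15b had no window. The share was 25.9% of members with a window, against 2.55% of the 7830 genes with a window and a mean of at least 1 FPKM. It was 4.51% of all 27025 genes with a window and 3.97% of all 32851 windows. The members with a window include Stc2, Cbs and Vldlr, which lay below a mean of 1 FPKM. A separate list, of other genes mostly taken as ATF4 targets, had it in 7 of 20 genes, and a list of other folate, glycine, methionine and proline genes in 0 of 16. The members and the ATF4 target list were drawn up around ATF4, so a higher share was built in and nothing is read from it. A match is a run of letters and not a measured binding site. The 7 stretches are shown because they are the feature these members share outside their RNA levels. Each has 30 bases, 5′ to 3′ on the gene's strand, with the motif or its reverse complement TTNCATCA in capitals.
Trib3: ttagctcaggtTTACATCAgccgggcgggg
Asns: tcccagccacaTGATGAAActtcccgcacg
Chac1: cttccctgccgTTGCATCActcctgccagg
Got1: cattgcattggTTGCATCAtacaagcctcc
Nupr1: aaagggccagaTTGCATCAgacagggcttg
Pycr1: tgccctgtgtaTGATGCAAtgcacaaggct
Vldlr: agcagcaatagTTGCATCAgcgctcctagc

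The Trib3 stretch lay at chr2:152344028-152344057 on the minus strand, its motif beginning at base 15 after the start. That of Asns lay at chr6:7693214-7693243, minus strand, with the motif 23 bases before the start. In Chac1 (chr2:119351038-119351067, plus strand) and Vldlr (chr19:27216809-27216838, plus strand) it began 193 and 200 bases before the start. In Got1 (chr19:43524689-43524718), Nupr1 (chr7:126625562-126625591) and Pycr1 (chr11:120643833-120643862), all on the minus strand, it began 102, 110 and 103 bases before the start. The letters were TTGCATCA in Chac1, Got1, Nupr1 and Vldlr, and Pycr1 carried the reverse complement of those letters.

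The labelled cells were checked with markers. Of 8 osteoclast genes 7 had a mean of at least 1 FPKM (fragments scaled to a gene's length and to depth), and so had 5 of 5 macrophage genes. None of 8 osteoblast and fibroblast genes or 6 lymphocyte genes did. Calcr, the calcitonin receptor gene, was the osteoclast gene below that limit. Most osteoclast markers were lower in the TSH libraries: beyond counting error 4 of 7 were lower and 1 higher in T1, and 7 of 7 lower in T2. Of all genes past that limit 12.2% were lower and 10.8% higher in T1, and 13.2% and 10.2% in T2. These 7 genes had 2921 to 32592 reads in any library, and better covered genes are called at smaller differences. Their T2 ratios ran from 0.733 (Ctsk) to 0.961 (Nfatc1). Ctsk, the bone-degrading protease gene, was at 1337 FPKM under RANKL alone, 983 in T1 and 979.9 in T2, and Acp5, the acid phosphatase gene, at 972, 857 and 822. Summed over the 8 osteoclast genes the level was 3057, 2541 and 2465 FPKM, and over the 5 macrophage genes 1163, 1146 and 1144. Ctsk and Acp5 weigh most in the osteoclast sum. Beyond counting error 3 macrophage genes were higher and 2 lower in T1, and 2 higher and 2 lower in T2. Adgre1 and Itgam, which stood at 1.82 and 1.05 FPKM under RANKL alone, had T1 ratios of 1.41 (1.08 to 1.85) and 1.52 (1.15 to 2.01). The part of these differences in the results below was not tested. For the TSH receptor gene, Tshr, 2 reads were found in T1 and 0 in the other libraries. Reads recovered per library ran from 16156926 to 17390744. In bulk RNA, fewer cells that express a gene and less of its RNA per cell cannot be told apart.

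Levels of the members spanned a wide range. Of the 30, 27 had a mean of at least 1 FPKM, and these had between 101 and 8519 reads in any library. Atf4, Shmt2, Psat1 and Phgdh stood highest, at percentiles 97.0, 96.8, 96.0 and 95.2 of the 11069 genes past that limit. Asns, encoding asparagine synthetase, was at percentile 94.5 and Mthfd2, encoding a mitochondrial folate enzyme, at 93.8. Pycr1, Chac1, Aldh1l2, Ddit3 and Trib3 were the lowest that passed, at percentiles 17.5, 27.7, 30.6, 36.6 and 37.4.

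**Figure D1:**
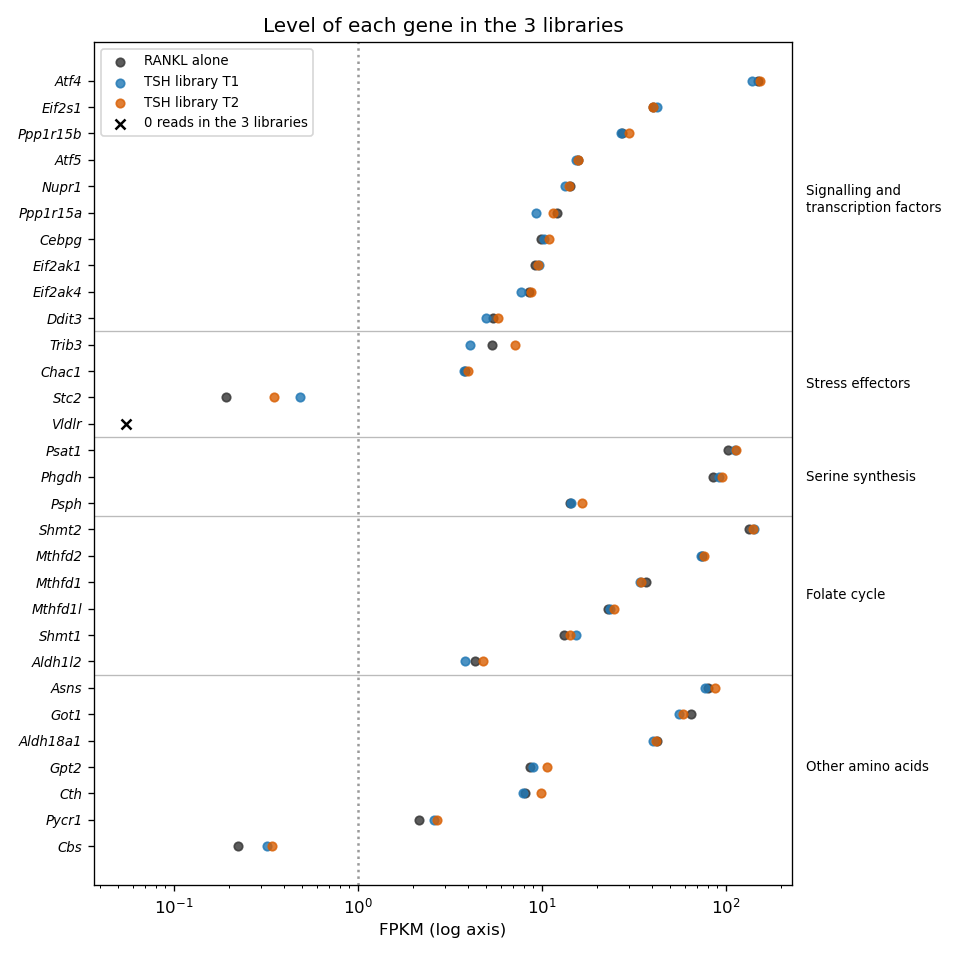
FPKM of the 30 genes on a log axis, by role, with 1 point for each library and a dotted line at 1 FPKM. Atf4, Shmt2, Psat1 and Phgdh lie near 100 FPKM, Stc2 and Cbs lie below 1, and the cross marks Vldlr, which had 0 reads.

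The 3 members below 1 FPKM were Stc2, Cbs and Vldlr. Stc2, encoding a secreted glycoprotein, had 16 reads under RANKL alone, 42 in T1 and 32 in T2, or 0.192, 0.484 and 0.353 FPKM. Its FPKM ratio in T1 to RANKL alone was 2.52, with a 95% counting interval of 1.39 to 4.81, and in T2 it was 1.84 (0.981 to 3.59). Cbs, encoding the first enzyme of the path from homocysteine to cysteine, had 12, 18 and 20 reads. Vldlr, a lipoprotein receptor gene, had 0 reads in each library, which allows a level of up to 0.0185 FPKM under RANKL alone. A second identifier for Ddit3, only 105 bases long, was also at 0 in every library.

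Counting intervals here come from the reads alone, compare libraries and not conditions, and carry no replicate error. A gene is called beyond counting error where its interval leaves out a ratio of 1. The 27 members past the limit had a median of 1044 reads, against 611 for all genes past it, and better covered genes are called at smaller differences.

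T1 was set against RANKL alone to see how the stress genes stood with TSH. Atf4 and the feedback genes Trib3 and Ppp1r15a were lower, and the serine enzyme genes Phgdh and Psat1 were higher. Beyond counting error, 7 of 27 members were lower (25.9%) and 5 higher (18.5%). Over all 11069 genes 12.2% were lower and 10.8% higher in this way, and since Trib3 in T1 and in T2 chose the list nothing is read from such counts. With the libraries scaled to the same FPKM total, 9 members were lower and 4 higher, against 16.3% and 7.50% of all genes. With 99% intervals 3 members were lower and 4 higher. Without the members that have copies or share exons, 6 of 17 were lower and 2 higher. By direction alone 11 members were higher, or 40.7%, as were 49.6% of all genes. The median log2 difference, on log2(FPKM + 1), was -0.02 for the members and 0.00 for all genes. On that scale none of the 27 members past the limit differed by 2-fold or more, where 1.04% of all genes did. Stc2, which lay below the limit, had an FPKM ratio of 2.52.

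Beginning with the kinases, Eif2ak4 (GCN2), which senses uncharged tRNA, had levels of 8.54 FPKM under RANKL alone, 7.71 in T1 and 8.72 in T2. It was low in T1 alone, at a ratio of 0.903 (0.826 to 0.987), a call lost with 99% intervals (0.803 to 1.01). Eif2ak1 (HRI), which senses haem, was at 9.25, 9.63 and 9.55 FPKM, and neither TSH library lay beyond counting error. Eif2s1, encoding eIF2alpha itself, was at 40.6, 42.6 and 40.4 FPKM. Its T1 ratio of 1.05 (1.001 to 1.10) was no longer beyond counting error with the libraries scaled to the same FPKM total, with 99% intervals or with its copies added (0.998 to 1.10).

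The phosphatase subunits that undo eIF2alpha phosphorylation differed from each other. Ppp1r15a (GADD34), the stress-induced subunit, stood at 12.1 FPKM under RANKL alone, 9.36 in T1 and 11.5 in T2. T1 was the low library, at 0.774 (0.683 to 0.876) of RANKL alone, while T2 was at 0.954 (0.849 to 1.07). Ppp1r15b (CReP), the constitutive subunit, stood at 27.3, 26.9 and 30.0 FPKM, high in T2 at a ratio of 1.10 (1.04 to 1.16). The level of Ppp1r15b was 2.26 times that of Ppp1r15a under RANKL alone (counting interval 2.06 to 2.47), 2.87 times in T1 (2.60 to 3.17) and 2.60 times in T2 (2.38 to 2.84). The intervals of RANKL alone and T1 did not overlap.

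Among the transcription factors, Atf4 (chromosome 15, 80255184 to 80257541, GRCm38) was at 149 FPKM under RANKL alone, 139.6 in T1 and 154 in T2. It was lowest in T1, at 0.935 (0.901 to 0.971), and its T2 ratio of 1.03 (0.995 to 1.07) was not beyond counting error. Atf4 in T2 was higher beyond counting error with the same FPKM total, at 1.04 (1.00002 to 1.07), and with GC and length trends removed, at 1.05 (1.01 to 1.09). Atf5, a related factor, was at 15.7, 15.4 and 15.8 FPKM, and Nupr1, a stress-induced chromatin protein gene, at 14.2, 13.5 and 14.1. Ddit3 (CHOP), a factor linked to cell death in prolonged stress, was at 5.43, 5.01 and 5.76 FPKM. For these last 3 genes each interval against RANKL alone held 1, and in T1 the intervals reached down to ratios of 0.868, 0.842 and 0.729. Cebpg, encoding a dimer partner of ATF4, was at 9.97, 10.3 and 11.0 FPKM, with a T2 ratio of 1.10 (1.01 to 1.21), a call lost with 99% intervals (0.981 to 1.24).

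Trib3 (chromosome 2, 152337422 to 152344032) encodes a pseudokinase that ATF4 and CHOP induce and that restrains ATF4. It stood at 5.40 FPKM under RANKL alone from 185 reads, 4.10 in T1 from 146 and 7.17 in T2 from 267. The ratio was 0.759 (0.607 to 0.948) in T1 and 1.33 (1.10 to 1.61) in T2, the values that chose the list. With 99% intervals T1 was not beyond counting error (0.566 to 1.01). Of all 11069 genes, 14 (0.126%) were lower in T1 and higher in T2 beyond counting error, and Trib3 was the only member among them. Chac1, encoding an enzyme that breaks down glutathione and a known ATF4 target, was at 3.83, 3.79 and 3.97 FPKM from 101, 104 and 114 reads. Its ratios were 0.990 (0.746 to 1.32) and 1.04 (0.788 to 1.37). Between T2 and T1 the ratio of Chac1 was 1.05 (0.797 to 1.38).

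The 3 enzymes that make serine from a glycolytic intermediate were each highest in T2. Phgdh, which takes the first step, was at 85.5 FPKM under RANKL alone, 92.0 in T1 and 95.8 in T2. Psat1, the aminotransferase of the second step, was at 103, 113 and 114 FPKM. Psph, the phosphatase of the last step, was at 14.2, 14.5 and 16.6 FPKM. In T1 the ratios of Phgdh and Psat1 were 1.08 (1.03 to 1.13) and 1.09 (1.06 to 1.13), and Psph was at 1.02 (0.936 to 1.12). In T2 all 3 were beyond counting error, at 1.12 (1.07 to 1.17), 1.11 (1.07 to 1.14) and 1.17 (1.07 to 1.27).

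Part of these reads is uncertain. Phgdh has 13 near-identical copies, mostly listed under Gm names, which held 879 reads under RANKL alone, 850 in T1 and 901 in T2. Summed over the copies, its ratio was 1.05 (1.003 to 1.09) in T1 and 1.08 (1.04 to 1.13) in T2, so both remained above 1. Psph shares 452 exon bases with Cct6a on the other strand, a chaperonin gene at 116, 119 and 118 FPKM. Whether strand was used in counting is not given in the sources used here, so reads of the pair may be mixed. The ratios of Cct6a, 1.02 (0.991 to 1.06) and 1.02 (0.983 to 1.05), were not beyond counting error. Aldh1l2 likewise shares 1056 exon bases with D10Wsu102e on the other strand. That gene had 1636 reads under RANKL alone, 1574 in T1 and 1740 in T2, more than Aldh1l2 had. Its FPKM was lower, at 0.823, 0.762 and 0.806 against 4.35, 3.82 and 4.82 for Aldh1l2. FPKM divides reads by the deposited gene length, which was longer for D10Wsu102e. The lower FPKM therefore does not show how many of its reads fall on the shared bases. The T1 ratio of D10Wsu102e was, like that of Aldh1l2, below 1, at 0.925 (0.863 to 0.992). Reads of Aldh1l2 and D10Wsu102e cannot be told apart there. Other members share exon bases with a gene of higher level on the other strand. They were Ddit3 with Mars (68 bases, 58.0 FPKM under RANKL alone) and Atf5 with Nup62 (82 bases, 58.2 FPKM). Further pairs were Eif2ak1 with Aimp2 (487 bases, 22.3 FPKM) and Shmt1 with Smcr8 (184 bases, 24.6 FPKM). Mixing of reads in these pairs was not tested.

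The folate cycle takes serine's carbon into one-carbon units in both mitochondria and cytosol. Shmt2, the mitochondrial enzyme that splits serine into glycine, was at 134 FPKM under RANKL alone, 143 in T1 and 141 in T2. Shmt1, its cytosolic counterpart, was at 13.2, 15.4 and 14.3 FPKM. Both were higher in T1 beyond counting error, at ratios of 1.07 (1.03 to 1.10) and 1.17 (1.07 to 1.28), and in T2 Shmt2 alone was, at 1.05 (1.02 to 1.09). The mitochondrial enzyme's level was 10.2 times that of the cytosolic one under RANKL alone (9.45 to 10.9), 9.28 times in T1 and 9.90 times in T2, and the 3 intervals overlapped.

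Mthfd1, the cytosolic enzyme that carries out 3 steps of the cycle, was at 36.8, 34.4 and 34.5 FPKM. It was lower in both TSH libraries, at 0.934 (0.884 to 0.986) and 0.938 (0.888 to 0.990), and both calls were lost with 99% intervals (0.869 to 1.003 and 0.874 to 1.007). Mthfd2 was at 74.2, 73.3 and 76.1 FPKM, and neither ratio to RANKL alone was beyond counting error. Mthfd1l, which releases formate, was at 22.8, 23.5 and 24.8 FPKM, with a T2 ratio of 1.09 (1.02 to 1.16) that was not beyond counting error with 99% intervals (0.995 to 1.18). Aldh1l2, which burns the mitochondrial folate carbon to make NADPH, was at 4.35, 3.82 and 4.82 FPKM, low in T1 at 0.878 (0.774 to 0.995). That call was lost with 99% intervals (0.744 to 1.03) and with GC and length trends removed (0.779 to 1.001).

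The last group holds asparagine, proline, cysteine and transaminase enzymes. Asns was at 80.7 FPKM under RANKL alone, 77.7 in T1 and 87.7 in T2, and T2 was high at a ratio of 1.09 (1.04 to 1.14). With the same FPKM total Asns was lower in T1 beyond counting error, at 0.945 (0.902 to 0.990). Cth, which makes cysteine from cystathionine, was at 8.15, 7.88 and 9.88 FPKM, with a T2 ratio of 1.21 (1.06 to 1.39). Gpt2, the mitochondrial alanine transaminase, was at 8.69, 8.94 and 10.7 FPKM, with a T2 ratio of 1.23 (1.12 to 1.35). These genes were near the level of RANKL alone in T1 and above it in T2.

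Got1, the cytosolic aspartate transaminase, was the gene of this group that was lower beyond counting error. It stood at 64.8 FPKM under RANKL alone, 56.0 in T1 and 58.8 in T2, lower in both at 0.864 (0.817 to 0.913) and 0.908 (0.860 to 0.958). The level of Got1 was 7.46 times that of Gpt2 under RANKL alone (6.89 to 8.08), 6.27 times in T1 (5.79 to 6.78) and 5.49 times in T2 (5.11 to 5.90). The intervals of both TSH libraries lay below that of RANKL alone and overlapped each other. Aldh18a1, which starts proline synthesis, was at 42.1, 40.5 and 42.0 FPKM, within counting error of RANKL alone in both, although with the same FPKM total its T1 ratio was 0.943 (0.895 to 0.995). Pycr1, which finishes it in mitochondria, was at 2.16, 2.61 and 2.70 FPKM, and its ratios of 1.21 (0.959 to 1.52) and 1.25 (0.997 to 1.57) were not beyond counting error. Pycr1 in T2 was, at 1.26 in each case, with the same FPKM total (1.002 to 1.58) and with GC and length trends removed (1.006 to 1.585).

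**Figure D2:**
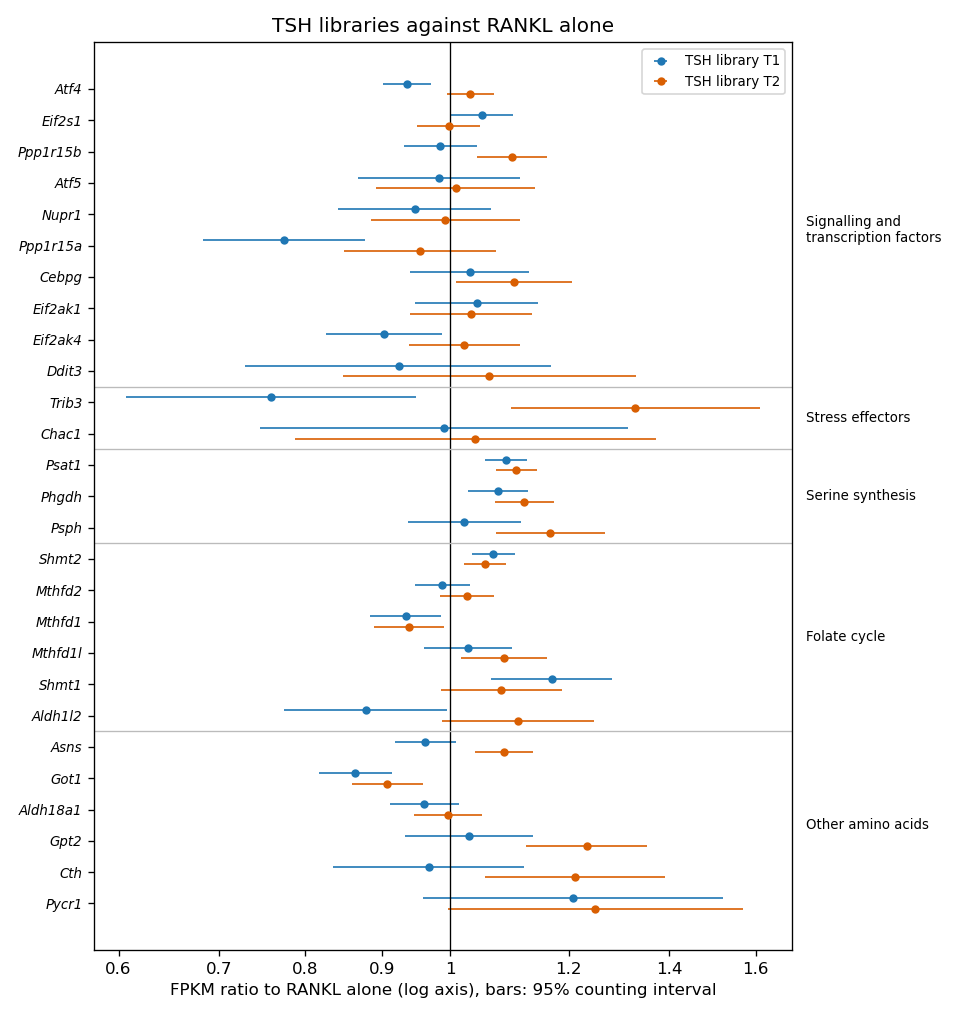
FPKM ratio of each TSH library to RANKL alone on a log axis for the 27 genes past the limit, with bars for the 95% counting interval. Trib3 lies on opposite sides of 1 in T1 and T2, and the 3 serine enzymes lie above 1 in both, as do some other genes. Of the genes below 1 in both, Mthfd1 and Got1 are beyond counting error in both.

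In T2 the enzymes of serine, asparagine, cysteine and alanine synthesis were higher than under RANKL alone. Over all members, the comparison gave 11 of 27 higher (40.7%) and 2 lower (7.41%) beyond counting error. The 2 lower were Mthfd1 and Got1, of which Got1 was left with 99% intervals. Of all 11069 genes 10.2% were higher and 13.2% lower in this way. By direction alone 21 were higher, where 49.4% of all genes were, and the median log2 difference was 0.08 for the members and 0.00 for all genes. No member passed 2-fold, which 0.768% of all genes did. Without the members that have copies or share exons, 7 of 17 were higher and 2 lower. T1 and T2 share the library of RANKL alone, so their ratios are given side by side and not as separate support.

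T2 was set directly against T1, which leaves out the library of RANKL alone. Of the members, the feedback genes Trib3 and Ppp1r15a and the amino acid genes Cth, Gpt2 and Asns were among those higher in T2. Beyond counting error 10 of 27 members were higher in T2 (37.0%) and 1 lower, against 7.93% and 10.1% of all genes. By direction alone 23 were higher, where 48.9% of all genes were. None passed 2-fold, which 0.831% of all genes did. Among the 9231 genes with at least 100 reads in each library, as all 27 had, the shares were 8.40% and 11.0%. Scaling the libraries to the same FPKM total moved the 10 members to 17, and the 1 lower to 0, while the shares of all genes became 14.0% and 5.63%. The list was chosen on this contrast, so nothing is read from the counts.

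Trib3 had the highest ratio of the members past the limit, 1.75 (1.42 to 2.16). Aldh1l2 followed at 1.26 (1.12 to 1.43), Cth at 1.25 (1.09 to 1.44), Ppp1r15a at 1.23 (1.09 to 1.40) and Gpt2 at 1.20 (1.09 to 1.31). Psph was at 1.14 (1.05 to 1.24), Asns and Eif2ak4 at 1.13 and Ppp1r15b at 1.12. Atf4 itself was at 1.10 (1.06 to 1.14). The member lower beyond counting error was Eif2s1, at 0.950 (0.906 to 0.996), which lost that call with 99% intervals and with the same FPKM total. Phgdh and Psat1, higher than under RANKL alone in both TSH libraries, were at 1.04 (0.997 to 1.09) and 1.02 (0.985 to 1.05) between them, and both were higher beyond counting error with the same FPKM total, at 1.07 (1.02 to 1.11) and 1.04 (1.01 to 1.07).

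**Figure D3:**
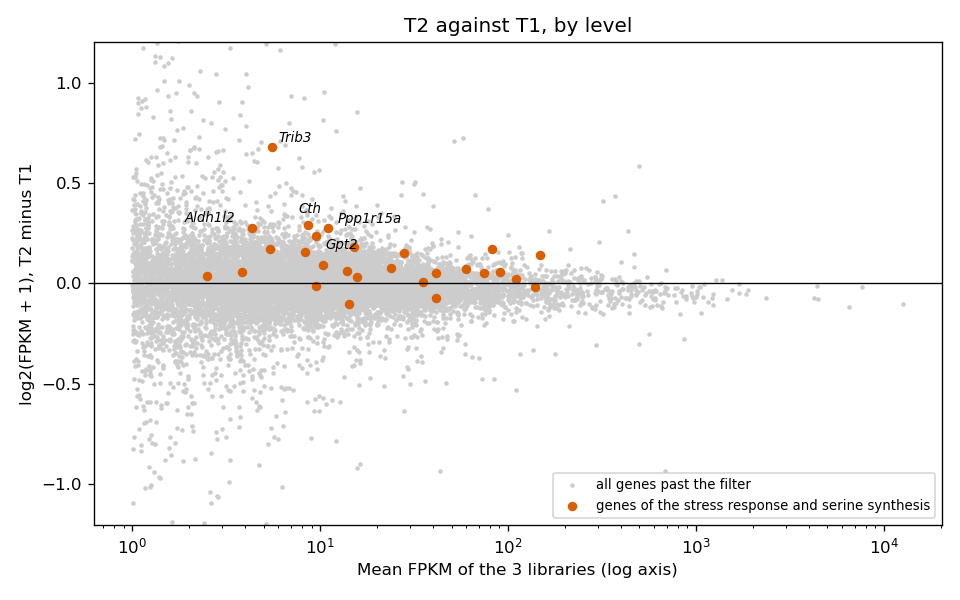
Difference in log2(FPKM + 1) between T2 and T1 against the mean FPKM (log axis), with all 11069 genes past the limit in grey and the 27 members in orange; 63 genes lie outside the plotted range. Trib3 stands at 0.68 and most of the other members lie a little above 0.

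The order of the 3 libraries was read for each member. In 16 of 27 T1 was the lowest, as in 31.9% of all genes, and in 18 T2 was the highest, as in 31.4%. The full order T1, RANKL alone, T2 held for 11 members, among them Atf4, Ddit3, Trib3, Asns, Cth and Eif2ak4. Of all genes 14.3% had it. This is the order of Trib3 that chose the list, so nothing is read from the 11, the 16 or the 18. Only Trib3 was beyond counting error on both sides of RANKL alone. Only Eif2s1 had its lowest level in T2. With the libraries scaled to the same FPKM total the counts were 16 and 21, and the shares of all genes were 42.1% and 37.9%. Of the 12 members with at least 1000 reads in each library, T1 was lowest in 7. The share of all genes with that many reads was not counted, so nothing is read from the 7.

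Other genes of the same pathways were read from 3 lists. The first held 11 genes of the other eIF2 kinases, the eIF2 subunits, the exchange factor eIF2B, Gcn1l1 and Impact. In T1 3 were lower and 1 higher beyond counting error, in T2 2 and 1, and between T2 and T1 1 was higher. Of all genes 12.2% were lower and 10.8% higher in T1, 13.2% and 10.2% in T2, and 10.1% and 7.93% in T2 against T1. Eif2ak3 (PERK), the kinase of the endoplasmic reticulum, was at 8.41 FPKM under RANKL alone, 7.37 in T1 and 7.14 in T2, with ratios of 0.877 (0.793 to 0.970) and 0.849 (0.768 to 0.939). Impact, which binds GCN1 and restrains GCN2, was at 19.0, 16.6 and 19.0 FPKM, low in T1 as Eif2ak4 was. The exchange factor subunits Eif2b5 and Eif2b3 went opposite ways, with T1 ratios of 0.910 (0.849 to 0.975) and 1.10 (1.01 to 1.20) and T2 ratios of 0.930 and 1.12.

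The second list held 26 genes, of which 24 passed the limit. All but Jdp2, a leucine zipper factor, are taken as ATF4 targets, among them transporters and tRNA synthetases. Beyond counting error 9 were lower and 1 higher in T1, 2 lower and 4 higher in T2, and 9 higher and 1 lower in T2 against T1. The 1 higher in T1 and the 1 lower in T2 against T1 were Jdp2, and the 2 lower in T2 were Jdp2 and Eif4ebp1. Of all genes 12.2% were lower and 10.8% higher in T1, 13.2% and 10.2% in T2, and 10.1% and 7.93% in T2 against T1. The median log2 differences were -0.07, -0.01 and 0.06. Sesn2, a stress gene that restrains mTORC1, was at 13.8, 10.1 and 12.7 FPKM, so T1 was the low library. Slc3a2, the heavy chain of amino acid exchangers, was at 48.6, 44.5 and 51.4 FPKM, and Slc7a11, the light chain of the cystine importer, at 1.91, 1.64 and 1.89. Atf3, a stress-induced factor, was at 1.73, 1.38 and 2.12 FPKM from 60, 50 and 80 reads, with a T2 to T1 ratio of 1.53 (1.06 to 2.23).

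Not every gene of that list was higher in T2 than in T1. Eif4ebp1, which encodes a brake on translation, was at 99.5 FPKM under RANKL alone, 91.5 in T1 and 87.4 in T2, lower in both at 0.920 (0.877 to 0.964) and 0.879 (0.838 to 0.921). Jdp2 was at 216, 224 and 194 FPKM, the highest in T1 and the lowest in T2. Slc7a5, a leucine transporter chain, and Xpot, a tRNA exporter, had T2 ratios of 1.07 (1.02 to 1.13) and 1.07 (1.03 to 1.11).

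The third list held 22 other folate, glycine, methionine and proline genes, with 17 past the limit. Beyond counting error 4 were higher and 2 lower in T1, and 4 higher and 4 lower in T2. The shares of all genes were 10.8% higher and 12.2% lower in T1, 10.2% and 13.2% in T2, and 7.93% and 10.1% in T2 against T1. Its counts between T2 and T1 were 2 higher and 7 lower beyond counting error, with a median log2 difference of -0.07, where the members had 0.07. Glul (glutamine synthetase) and Slc25a32 (the mitochondrial folate carrier) had T2 to T1 ratios of 0.832 (0.716 to 0.966) and 0.836 (0.742 to 0.941). Tyms, the thymidylate synthase gene, was higher in both TSH libraries, at 1.28 (1.14 to 1.43) and 1.21 (1.08 to 1.36). Ahcy, which clears the by-product of methylation, had a T1 ratio of 1.10 (1.01 to 1.19), and Mtrr, which keeps methionine synthase active, a T2 ratio of 1.15 (1.01 to 1.30). Pycrl, which also encodes an enzyme of the last step of proline synthesis, stood at 12.2 times the level of Pycr1 under RANKL alone.

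**Figure D4:**
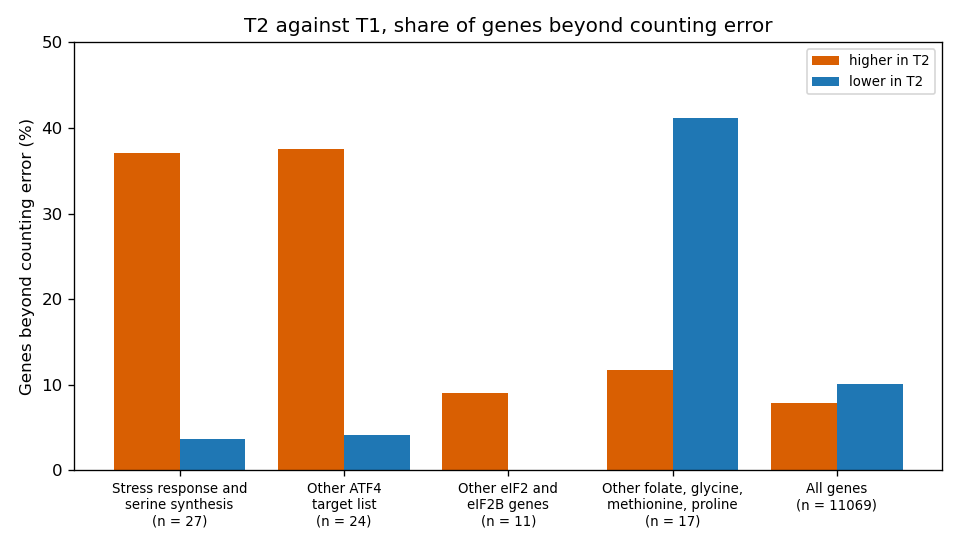
Share of genes (%) that were higher or lower in T2 than in T1 beyond counting error, as bars, at the deposited FPKM. Bars are for the members, the 3 other lists and all genes past the limit. The members and the other ATF4 list have 37.0% and 37.5% higher, the folate, glycine, methionine and proline list has 41.2% lower, and all genes have 7.93% higher and 10.1% lower.

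Some members lie close together on a chromosome. Ddit3 and Shmt2 are 0.221 Mb apart on chromosome 10, Atf5 and Ppp1r15a 0.706 Mb apart on chromosome 7, and Eif2ak4 and Chac1 0.876 Mb apart on chromosome 2. Eif2ak4 and Chac1 had the same order of libraries, T1 lowest and T2 highest, while T1 was lowest in Ddit3 and highest in Shmt2. Every interval of Chac1 and of Ddit3 between libraries held 1, so nothing is read from these orders. The GC content of the members' longest transcripts had a median of 49.9%, against 49.4% for all genes past the limit, and their median gene length was 3883 bases against 3876.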

How the data were processed

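RNA was measured in 3 libraries, 1 per group, made from total RNA with a SMARTer kit per the labels' protocols. The authors deposited FPKM per gene, and other columns they deposited, such as gene length, belong to no library. The builds are GRCm38 and mm10 per the submitters' processing notes. Which aligner, counter, strand setting and gene annotation were used is not given in the sources used here. 0 per-sample columns were left unused. The columns T1 and T2 could not be tied to hours, so the planned 2 h and 24 h comparisons became those of T1 and T2. FPKM times length was a whole multiple of 1 step per library, within 0.01 for 100% of values above 0, which gave reads per gene.

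Differences are in log2(FPKM + 1), a scale that shrinks differences of weakly expressed genes, and genes averaging under 1 FPKM were left out of counts. No test is possible with 1 library in each group. Ratios have 95% intervals by the exact conditional Clopper-Pearson method, computed on reads. PCR copies are not independent molecules, so these, and the floor of 3 reads behind a level of 0, cover counting error only. Intervals of level ratios between genes are log-normal. Functions were tested on simulated reads. The members, lists and rules were chosen with earlier results of these data known. Every member is named, with up to 4 genes per other list and comparison, and some genes that this rule takes are not reported here. Gcn1 was matched as Gcn1l1 through RefSeq synonyms. Copies (at least 95% identity over 100 bases and 50% of the shorter transcript) came from BLAST+ 2.17.0 on GENCODE M21, whose coordinates matched for 30 of 31 member identifiers, and exon overlaps of 50 bases or more were kept. Computation was in Python 3.11.15 on scipy 1.17.1, numpy 2.4.6 and pandas 2.3.3, with figures from matplotlib 3.10.9.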

Additional observations from a re-analysis of the deposited data

Results flagged for a closer look

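A few genes lay on opposite sides of RANKL alone in the TSH libraries, each beyond counting error. The difference between the libraries was not tested, for want of replicates. Trib3 was at a log2 difference of -0.33 in T1 and 0.35 in T2, which is how the list was chosen. Slc3a2 was at -0.12 in T1 and 0.08 in T2. Jdp2 went the other way, at 0.05 in T1 and -0.16 in T2.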

How the results depend on the processing

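No paired analysis was possible because each group had 1 library. Pseudocounts of 0.1 and 5, no limit on level, a limit of 5 FPKM, median-of-ratios scaling and removal of GC and length trends, the last chosen after seeing the data, moved none of the counts by over 1.5 times. For the pseudocounts this was fixed for all but the 2-fold counts, since direction and counting intervals do not depend on them. With the libraries scaled to the same FPKM total, which raised the median of all genes in T2 against T1 by 0.0296, members beyond counting error there went to 17 higher and 0 lower, and 2 lay below T1 in all. With 99% intervals the lower members were 3 in T1, 1 in T2 and 0 in T2 against T1, and the higher were 4, 9 and 10. Shares of all genes were not counted with 99% intervals, so nothing is read from that fall. With a 1.5-fold rule 1 member passed, Trib3 in T2 against T1. Without members that have copies or share exons, chosen after seeing the data, T1 had 5 higher, 2 of them beyond counting error, T2 had 12 higher, 7 of them beyond it, and T2 against T1 had 1 lower and 0 beyond it. In the other direction 6 were lower beyond it in T1, 2 were lower in T2 and 7 were higher in T2 against T1. Single genes gave 897 values under these alternatives, other than the limits on level and the 1.5-fold rule. All stayed within their counting interval of the reported value. Those with 99% intervals or with members left out could not differ, since neither changes a gene's log2 difference. Depth limits Vldlr, with 0 reads, and Ddit3, Chac1, Pycr1, Stc2 and Cbs, each with under 200 reads in every library.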
